A study of Mus musculus with 6 samples.

Results

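The cytosolic ribosomal protein genes were followed in group 1 innate lymphoid cells (ILC1) of the mouse liver. Members were all rows of the count table whose symbol names a large subunit protein (Rpl or Rplp), a small subunit protein (Rps or Rpsa) or Fau, without pseudogenes, ribosomal S6 kinases and like-named paralogs. This gave 78 genes of 24091, with 46 of the large and 32 of the small subunit. Of the 78 genes, 77 passed the filter on low counts and were tested, and Rpl26 did not pass.

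Both groups were ILC1 from the livers of C57BL/6 mice. The AML mice had been injected intravenously with 1000000 C1498 cells, and the healthy mice had not. C1498 cells are a leukaemia line that grows in mice of this strain, and ILC1 were collected at day 14. Each group had 3 libraries, called healthy 1 to 3 and AML 1 to 3. The sorting gate is not described in the labels, nor whether a library came from a single animal, a pool or an animal of its own. The p-values therefore reflect how these libraries varied, and that variation may be technical.

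Ribosomal proteins join the ribosomal RNAs to form the large subunit, which makes the peptide bond, and the small subunit, which decodes the messenger RNA. Cells need most of these proteins in equal numbers, and the messenger RNAs of ribosomal proteins are among the most abundant of most cell types. Many of these messenger RNAs begin with a terminal oligopyrimidine (TOP) motif, a cytosine followed by a run of pyrimidines, through which mTOR and LARP1 adjust their translation. Ribosomal protein genes are also known for their many processed pseudogenes and for small nucleolar RNAs (snoRNAs) encoded in their introns.

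Library totals ran from 45135093 to 51284691 counts. At this depth 3 counts, taken as the limit that 0 reads allow, equal 0.0585 to 0.0665 CPM (reads of a gene per 1000000 counts of the library). This limit uses unscaled library totals and covers counting error only. The CPM values below use totals scaled by TMM, a correction of library size, with factors of 0.973 to 1.054. The 8 markers listed for ILC1, such as Itga1, Tbx21 and Ncr1, summed to 5650 to 5840 CPM in healthy and 5330 to 6050 CPM in AML libraries. The 6 markers of conventional natural killer (NK) cells summed to 122 to 145 CPM and 110 to 144 CPM, with 5 of 6 positive in log2 fold change. T cell markers, 5 genes, summed to 17.2 to 36.7 CPM in healthy and 14.7 to 58.9 CPM in AML libraries, with 3 of 5 positive. The 6 neutrophil markers summed to 77.1 CPM in AML 1 and to 0.503 to 7.15 CPM in the other 5 libraries, with 4 of 4 tested positive in log2 fold change, while Ly6g among them had no reads. The 4 proliferation markers were also highest in AML 1, at 143 CPM against 16.5 to 57.5 CPM, with 4 of 4 positive. Progenitor and blast markers had 5 of 5 positive, at 7.24 to 27.0 CPM in healthy and 19.0 to 30.5 CPM in AML libraries. The 5 B cell markers summed to 5.36 to 7.54 CPM in healthy and 5.45 to 6.39 CPM in AML libraries. Of these, 0 of 2 tested were positive, and Pax5 had no reads. The 12 Kupffer cell and macrophage markers summed to 567, 69.5 and 64.9 CPM in healthy 1 to 3 and to 646 to 704 CPM in AML libraries, with 10 of 10 tested above 0 in log2 fold change and 0 past the threshold. The 8 dendritic cell markers summed to 839 to 868 CPM in healthy and 1030 to 1130 CPM in AML libraries, with 7 of 8 positive. The 7 hepatocyte markers summed to 230.0 to 276 CPM in healthy and 186 to 205 CPM in AML libraries, with 1 of 4 tested positive. Alb held little of that sum, with a mean count of 46.2 per library. In these bulk libraries fewer cells of a type and less RNA per cell cannot be told apart, and the part of other cells in the results below was not tested.

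The start sites of several members are shown because the TOP motif is a known feature of this gene family. Rpl7a and Rps3a1 are shown as members without the motif exactly at the annotated start. Promoter entries of RefSeq, on GRCm38.p6, which is the mm10 assembly, matched 58 of the 78 members. The 30 bases printed run from 10 bases before the annotated start to 20 bases from it on, 5′ to 3′ on the gene's strand. Capitals mark the part within those 30 bases of the longest run of C or T found in the 25 bases on each side of the start.

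Rps6 (chr4:86857348-86857377, minus strand): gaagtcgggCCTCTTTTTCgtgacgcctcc
Rps18 (chr17:33955646-33955675, minus strand): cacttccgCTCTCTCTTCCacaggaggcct
Rps10 (chr17:27635225-27635254, minus strand): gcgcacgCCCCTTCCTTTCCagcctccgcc
Rplp2 (chr7:141447641-141447670, plus strand): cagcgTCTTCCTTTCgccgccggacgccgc
Fau (chr19:6057937-6057966, plus strand): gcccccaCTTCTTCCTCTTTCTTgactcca
Rpl7a (chr2:26910797-26910826, plus strand): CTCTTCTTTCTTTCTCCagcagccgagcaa
Rps3a1 (chr3:86142649-86142678, minus strand): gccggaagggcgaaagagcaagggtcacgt

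In Rps6, Rps18, Rps10, Rplp2 and Fau the annotated start is a C followed by at least 4 bases that are C or T. In Rpl7a a run of 21 pyrimidines ends just after the start, and in Rps3a1 the longest run was 5 bases and lay before the bases shown. A C with 4 pyrimidines after it, exactly at the annotated start and on the gene's strand, was present in 13 of 58 members, or 22.4%, against 2.5% of all promoter entries with distinct symbols. A run of 8 or more pyrimidines within 25 bases of the start was present in 48.3% of members and in 19.4% of all entries. The same length of purines, which is a pyrimidine run on the other strand, was present in 8.6% of members and 21.1% of all entries. These matches describe the annotated starts and were not related to translation, which was not measured.

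Some members host snoRNA genes. In the GENCODE M21 annotation 30 of 78 members, or 38.5%, held at least 1 snoRNA gene in their body on the same strand, 58 snoRNA genes in all. Rpl4 held the most, with 5. Of the other tested genes found in that annotation 1.89% held any. The members lay on 20 chromosomes, with 14 of them on chromosome 7 and 4 on chromosome X. Exons of 18 members overlap exons of a gene on the opposite strand, among them Rpl5, Rps2, Rps10, Rps18 and Rpl12, and because strand was not kept in the libraries, reads of such stretches have no certain source gene.

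Ribosomal protein genes took a small share of the counts, and that share was unevenly divided. Together they held 0.471%, 0.439% and 0.391% of all counts in healthy 1 to 3 and 0.409%, 0.392% and 0.405% in AML 1 to 3. The 5 most counted members, Rpl4, Rps3, Rpl13a, Rplp0 and Rpl8, held 40.4% of the counts of all members. The 37 members with a mean count of at least 1000 held 93.5%. Per kilobase of the deposited gene length, mean levels over the 6 libraries ran from 0.359 RPKM (CPM per kilobase) for Rpl5 to 380.0 RPKM for Rpl4 among tested members, a ratio of 1060. The median member stood at 19.9 RPKM against 8.0 RPKM for all tested genes, with 13 members in the top 5% of tested genes and 25 below their median.

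The level of a member followed how much of its coding sequence is found in that gene alone. Reads of 51 bases were simulated by cutting the coding sequence of 1 GENCODE transcript per gene into every window of that length and searching each window, on both strands, in the transcripts of all other annotated genes. In 77 of 78 members some windows occurred unchanged in an annotated pseudogene, and 31 members matched more than 10 pseudogenes each. In 29 members no coding window was unique, and these had a median level of 5.01 RPKM (range 0.359 to 85.7). The 30 members above 0 and up to 20% unique windows had a median of 24.0 RPKM (range 0.0558 to 212). The 19 members above 20% had a median of 112 RPKM (range 11.5 to 380.0) and 66.8% of all member counts. Across the 78 genes, which are not independent replicates, Spearman's rho between the unique share and the level was 0.78 and Pearson's r with log2 RPKM was 0.64. The number of snoRNA genes did not go with the level, with a rho of 0.02.

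Windows from the middle of the coding sequence of chosen members show the difference, because a read of this length has either a single annotated source or several. Each is 51 bases of the coding strand, 5′ to 3′, from a GENCODE M21 transcript.

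Rpl5: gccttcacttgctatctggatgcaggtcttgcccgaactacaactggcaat
Rps29: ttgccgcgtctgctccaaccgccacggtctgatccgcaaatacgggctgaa
Rpl26: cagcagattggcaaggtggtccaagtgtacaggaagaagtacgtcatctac
Rpl4: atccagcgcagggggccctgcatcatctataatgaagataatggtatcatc
Rps3: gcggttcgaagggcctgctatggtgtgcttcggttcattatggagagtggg
Rpl8: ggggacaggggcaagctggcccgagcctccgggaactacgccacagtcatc

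The window of Rpl5, coding bases 421 to 471, occurs unchanged in 4 pseudogenes. That of Rps29, bases 60 to 110, occurs in 1 pseudogene, and that of Rpl26, bases 193 to 243, in 3. The windows of Rpl4, bases 604 to 654, Rps3, bases 340 to 390, and Rpl8, bases 361 to 411, occur in no other annotated gene. High level and a unique window did not always go together. The middle window of Rpl13a, bases 280 to 330 and not printed, occurs in 1 other gene, and Rpl13a stood at 157 RPKM. The genes lie on mm10 at chr5:107900528-107909005 (Rpl5), chr12:69157722-69159186 (Rps29), chr11:68901566-68904534 (Rpl26), chr9:64173387-64178562 (Rpl4), chr7:99477896-99483709 (Rps3) and chr15:76904071-76906318 (Rpl8). Rpl5, which with Rpl11 binds MDM2 when ribosome assembly fails, had 26, 43 and 42 reads in healthy 1 to 3 and 39, 23 and 38 reads in AML 1 to 3. Rpl26, a protein near the exit of the peptide tunnel, had 3, 0 and 3 reads and 0, 3 and 0 reads, at or under the limit that 0 reads allow, although 13.0% of its windows were unique. Rpl4, a protein lining that tunnel, had 31482, 29753 and 23221 reads and 24995, 24979 and 23071 reads.

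**Figure D1:**
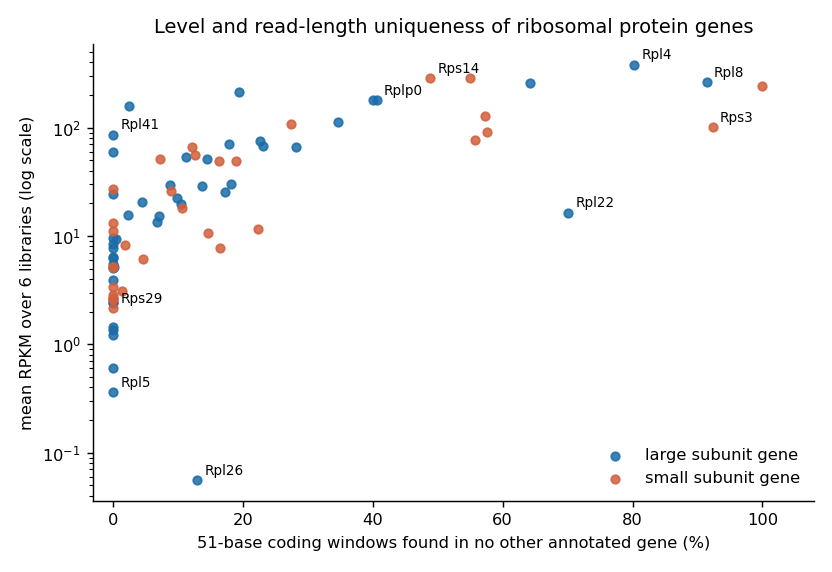
Mean RPKM over 6 libraries (log scale) of each of the 78 ribosomal protein genes against the percentage of its 51-base coding windows that occur in no other annotated gene, with large subunit genes in blue and small subunit genes in orange. Genes at 0% spread from 0.359 to 85.7 RPKM, and the genes above 20% lie at 11.5 RPKM or more.

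How reads that match several genes were counted is not given in the sources used here, so a level in this table cannot be read as the amount of a messenger RNA. Exceptions were present in both directions. Rpl41, the smallest ribosomal protein, had no unique coding window out of 25 and stood at 85.7 RPKM. Its coding sequence has 75 bases against a deposited length of 0.542 kb, and windows outside coding sequences were not examined. Rpl13 had no unique coding window and stood at 59.7 RPKM, and Rpl13a had 2.5% and stood at 157 RPKM. Rpl22, an RNA-binding protein of the large subunit, had 70.1% unique windows and stood at 16.3 RPKM over a deposited length of 2.491 kb. Mitochondrial ribosomal protein genes, which serve the separate ribosome of that organelle, had a median of 100% unique windows over 77 genes, with 42 genes fully unique and 2 with none, and a median level of 25.7 RPKM (range 0.467 to 96.6). Comparisons of the same gene between libraries, given below, do not need levels of different genes to be comparable. For the 29 members without a unique coding window, coding reads have no certain source gene in those comparisons either.

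The question of the design was how ILC1 of leukaemic mice differ from those of healthy mice. No ribosomal protein gene passed the threshold, and small negative differences prevailed. Of 77 tested members 0 passed an adjusted p of 0.05 in the quasi-likelihood test of edgeR, where 0.0% of all 12469 genes passed, and the smallest adjusted p of a member was 0.535. DESeq2, the likelihood ratio test of edgeR and limma-voom also called 0 members, against 1.15%, 0.802% and 0.0% of all genes. The log2 fold change (AML minus healthy) was negative for 58 members and positive for 19, where 48.0% of all tested genes were negative. The median was -0.14 over members (range -0.60 to 0.34) and 0.01 over all tested genes. At an unadjusted p below 0.05 there were 6 members lower in AML, or 7.79%, against 3.75% of all genes, and 0 higher, against 5.08%. The groups did not overlap for 12 members, against 15.5% of all genes. In all 12, or 15.6%, the AML libraries were the lower ones, against 7.34% of all genes, and in 0 the higher ones, against 8.2%.

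**Figure D2:**
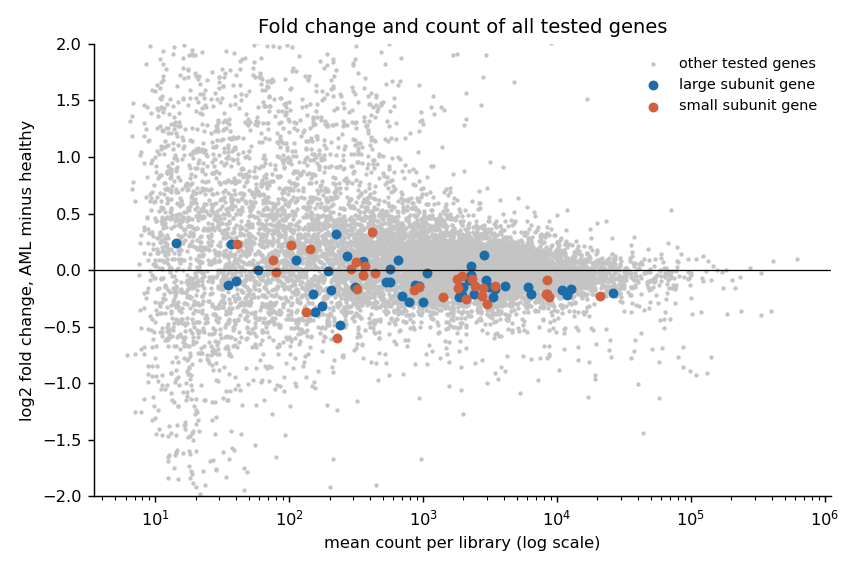
Log2 fold change (AML minus healthy) against the mean count per library (log scale) for all tested genes, with other genes in grey, large subunit genes in blue and small subunit genes in orange; 147 other genes lie beyond the axis limits of 2. Members with high counts lie in a narrow band just below 0, and members with low counts scatter to both sides.

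Large and small subunit genes had like medians. The median log2 fold change was -0.14 over the 45 tested large subunit genes, with 34 negative, and -0.14 over the 32 small subunit genes, with 24 negative. The difference of the medians, -0.001, was smaller than the spread of that difference between libraries of a group, an SD of 0.029. Counts of the large subunit divided by those of the small subunit were 1.379, 1.388 and 1.369 in healthy 1 to 3 and 1.373, 1.400 and 1.427 in AML 1 to 3. The groups overlapped, with AML 3 the highest. Of the 6 members with an unadjusted p below 0.05, 5 belong to the small subunit and Rpl10 to the large one, and the difference of these counts was not tested.

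**Figure D3:**
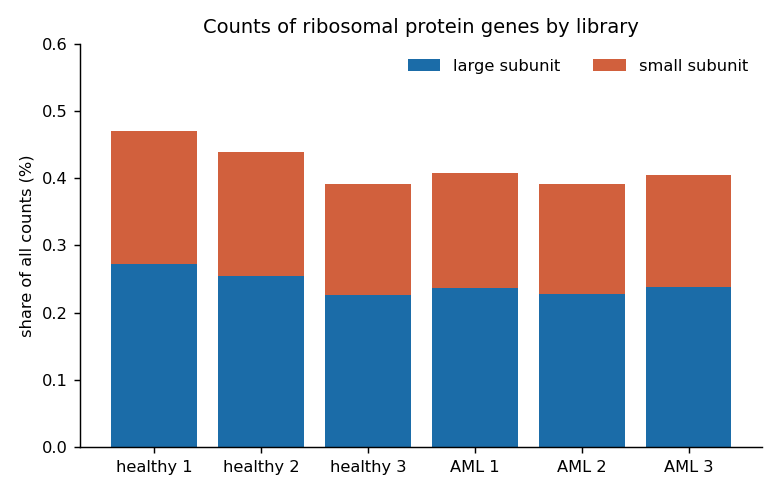
Share of all counts of each library (%) held by ribosomal protein genes, as stacked bars for the large subunit (blue) and the small subunit (orange). The bars reach 0.471% and 0.439% in healthy 1 and healthy 2 and 0.391% to 0.409% in the other 4 libraries.

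Healthy 1 and healthy 2 stood above the other 4 libraries, and healthy 3 sat with the AML libraries. The median member deviated from its own mean over the 6 libraries by 0.16, 0.09 and -0.04 in healthy 1 to 3 and by -0.04, -0.08 and -0.07 in AML 1 to 3, in log2 units of CPM plus an offset of 0.5. Over all tested genes the same median lay between 0.00 and 0.01 in every library. For 44 of the 77 tested members healthy 1 was the highest library. All 37 members with a mean count of at least 1000 were lower in healthy 3 than in both other healthy libraries. The members' median fold change was -0.20 without healthy 3, where 22 members had an unadjusted p below 0.05 and were lower, against 4.01% of all genes. It was -0.09 without healthy 1, where 0 members did, against 2.9% of all genes. Without healthy 2 the count was 0, against 2.28% of all genes, without AML 2 it was 2, against 2.56%, and without AML 3 it was 1, against 2.32%. Without AML 1 it was 13, and the share of all genes was higher as well, at 8.01%. Without healthy 3 the groups did not overlap for 42 lower members, or 54.5%, against 15% of all genes. In either direction this held for 45 members, 3 of them higher, against 29.2% of all genes. Healthy 3 was the lowest healthy library for all 37 members with a mean count of at least 1000, so leaving it out by itself favours separation.

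Among the 37 with a mean count of at least 1000, 35 were negative and the median fold change was -0.17, whereas among all 6952 tested genes at that count 56.9% were negative, with a median of -0.02. The exceptions were Rpl18 and Rpl41, at 0.13 ± 0.12 (SE) and 0.04 ± 0.10. The median Pearson correlation over the 6 libraries was 0.83 for the 666 pairs of these 37 genes, as a description of libraries that they share, and 630 pairs, or 94.6%, were positive. Over all pairs of the 6952 tested genes at that count the median was 0.01, and 50.7% were positive. The 32 tested members with a mean count of 100 or more but below 1000 had a median fold change of -0.11, with 20 negative, and the 8 with fewer reads had a median of 0.04, with 3 negative. The median standard error was 0.10, 0.21 and 0.41 in these 3 classes, so a difference of the size seen in the first class was not detectable in the last.

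**Figure D4:**
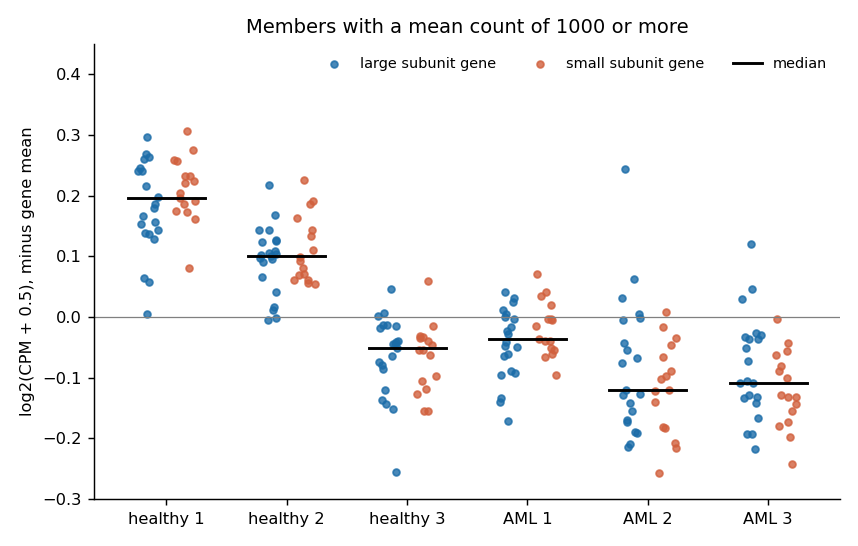
Log2(CPM + 0.5) of the 37 members with a mean count of at least 1000, minus the mean of the gene over the 6 libraries, with a point per gene (large subunit blue, small subunit orange) and the median as a black line. The medians are 0.20 and 0.10 in healthy 1 and healthy 2, -0.05 in healthy 3, and -0.04, -0.12 and -0.11 in AML 1 to 3.

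Small subunit genes held most of the smallest p-values. Rps14 (chr18:60774596-60778546), a protein of the platform whose loss is linked to the anaemia of the 5q syndrome, measured 188, 180.0 and 175 CPM in healthy 1 to 3 and 161, 166 and 142 CPM in AML 1 to 3. The groups did not overlap. Its log2 fold change was -0.21 ± 0.08 (SE), and the adjusted p was 0.535 by edgeR's quasi-likelihood test, the smallest of the members. Rps18 (chr17:33951999-33955641), of the small subunit head, measured 50.1, 48.5 and 41.4 CPM in healthy and 41.0, 37.5 and 38.5 CPM in AML libraries. Healthy 3 and AML 1 were nearly equal, and the fold change was -0.26 ± 0.10.

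Rps2, Rps3a1 and Rps9 had the same shape. Rps2, a protein beside the messenger RNA entry, measured 67.3, 60.0 and 55.7 CPM in healthy and 54.7, 51.0 and 50.5 CPM in AML libraries, which gave a log2 fold change of -0.23 ± 0.09. Rps3a1, a protein of the platform, measured 75.2, 71.1 and 56.7 CPM against 60.5, 50.7 and 53.8 CPM, at -0.30 ± 0.12. Here healthy 3 lay below AML 1, so the groups overlapped. Rps9, an early-binding protein of the small subunit, measured 206, 182 and 168 CPM against 166, 158 and 157 CPM, at -0.21 ± 0.09. In these genes healthy 1 was the highest library, and their adjusted p ran from 0.557 to 0.564.

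Rps3 and Rps10 were lowest in healthy 3 among the healthy libraries. Rps3, which sits at the messenger RNA entry and also acts in DNA repair, had 92.3% unique coding windows. It measured 500.0, 477 and 410.0 CPM in healthy and 438, 375 and 371 CPM in AML libraries, at -0.23 ± 0.10, and the groups overlapped. Rps10, of the head, measured 32.9, 32.8 and 28 CPM against 26.8, 24.6 and 27.8 CPM, at -0.24 ± 0.11, and its groups did not overlap.

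**Figure D5:**
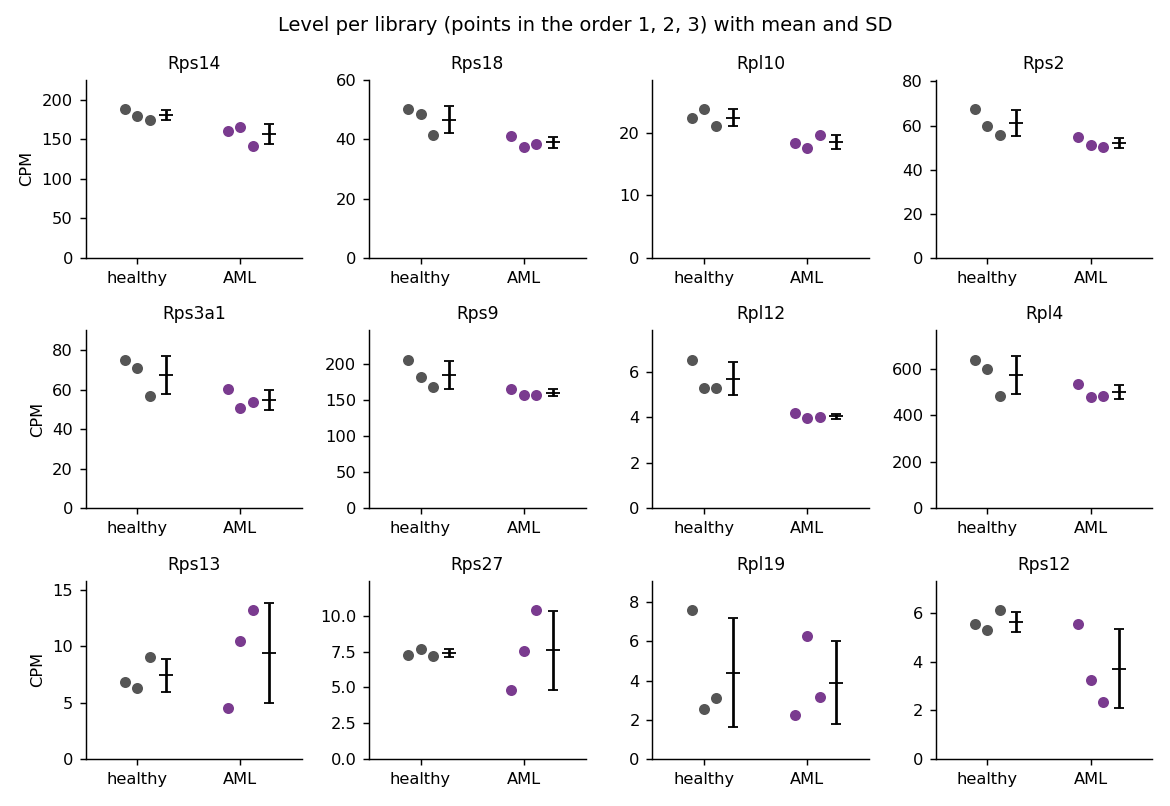
CPM of 12 members in each library, with healthy libraries in grey and AML libraries in purple (points in the order 1, 2, 3), and the group mean and SD as bars. In the upper 7 genes and Rpl4 the AML points lie low with healthy 3 next to them in most, and in Rps13, Rps27 and Rpl19 the SD of a group exceeds the difference of the means.

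Among large subunit genes Rpl10, Rpl12 and Rplp2 came first. Rpl10 (chrX:74270816-74273135), a protein that joins last and closes the peptidyl transferase centre, measured 22.4, 23.7 and 21.0 CPM in healthy and 18.4, 17.5 and 19.6 CPM in AML libraries. The groups did not overlap, and the log2 fold change was -0.28 ± 0.11, and the adjusted p was 0.540 by the edgeR test. Rpl12 (chr2:32961712-32964045), at the base of the stalk, measured 6.52, 5.29 and 5.28 CPM against 4.17, 3.96 and 4.0 CPM, at -0.49 ± 0.21. It had 190 to 322 reads per library and no unique coding window.

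The stalk proteins recruit the translation factors that split GTP. Rplp0, the anchor of the stalk, measured 284, 257 and 238 CPM in healthy and 247, 213 and 210.0 CPM in AML libraries, which gave a log2 fold change of -0.22 ± 0.10. Rplp1 measured 93.5, 85.7 and 83.3 CPM against 80.5, 83.5 and 74.1 CPM, at -0.14 ± 0.08. Rplp2 measured 55.1, 53 and 48.8 CPM against 45.6, 48.4 and 41.7 CPM, at -0.21 ± 0.09. All 3 were negative, and the groups did not overlap for Rplp2 alone.

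The large subunit genes with most reads had fold changes of about the same size. Rpl4 measured 638, 598 and 482 CPM in healthy and 534, 478 and 485 CPM in AML libraries, with healthy 3 among the AML values and a log2 fold change of -0.20 ± 0.11. Rpl8, near the peptidyl transferase centre, measured 259, 243 and 211 CPM against 223, 205 and 202 CPM, at -0.18 ± 0.09. Rpl13a, known as a repressor of inflammatory messenger RNAs when phosphorylated, measured 287, 285 and 250.0 CPM against 242, 236 and 252 CPM, at -0.17 ± 0.08. Rpl32 measured 153, 143 and 122 CPM against 128, 115 and 120.0 CPM, at -0.21 ± 0.10. In Rpl4, Rpl8, Rpl13a and Rpl32 the groups overlapped, and healthy 3 was the lowest healthy library.

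Rpl22, whose loss disturbs lymphocyte development in mice, measured 46.0, 43.0 and 38.6 CPM in healthy and 39.6, 38.3 and 37.4 CPM in AML libraries, which gave a log2 fold change of -0.15 ± 0.09 with an adjusted p of 0.646. Rpl41 measured 46.5, 48.5 and 42.6 CPM against 42.2, 48.4 and 50.4 CPM, and Rpl39 measured 24.5, 22.1 and 19.9 CPM against 21.0, 21.9 and 22.4 CPM. The fold changes of Rpl41 and Rpl39, 0.04 ± 0.10 and -0.03 ± 0.11, had intervals on both sides of 0. Rps4x, encoded on the X chromosome (chrX:102184941-102189391), measured 20.6, 19.4 and 16.0 CPM against 18.7, 15.2 and 15.4 CPM, at -0.18 ± 0.15.

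The largest fold changes in either direction belonged to members without unique coding windows. Rps12 (chr10:23785183-23787209), a protein of the small subunit beak, measured 5.53, 5.31 and 6.11 CPM in healthy and 5.54, 3.25 and 2.36 CPM in AML libraries, the most negative log2 fold change at -0.60 ± 0.33. AML 1 lay among the healthy values. Rps13 (chr7:116331507-116334190) measured 6.87, 6.27 and 9.10 CPM against 4.51, 10.5 and 13.2 CPM, the most positive at 0.34 ± 0.38, although AML 1 was the lowest of all libraries. Without AML 1 the fold change of Rps12 was -1.01 and that of Rps13 was 0.67, and neither passed, with adjusted p of 0.159 and 0.231 by the edgeR test.

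Rpl9 and Rps27 had the same order of AML libraries as Rps13. Rpl9 measured 3.95, 4.06 and 4.15 CPM in healthy and 3.78, 5.02 and 6.35 CPM in AML libraries, at 0.32 ± 0.26. Rps27, a zinc-finger protein of the small subunit, measured 7.29, 7.72 and 7.23 CPM against 4.85, 7.56 and 10.4 CPM, at 0.04 ± 0.28. In both, AML 1 lay below and AML 3 above every healthy library. Rpl19, named for its spread after its values were seen, measured 7.58, 2.55 and 3.09 CPM against 2.22, 6.26 and 3.15 CPM, with healthy 1 and AML 2 apart from the rest.

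Several other members are known beyond the ribosome. Rps27a, a fusion of ubiquitin with a small subunit protein, measured 2.49, 2.33 and 4.47 CPM in healthy and 2.10, 2.49 and 2.59 CPM in AML libraries, so its fold change of -0.37 ± 0.34 rested on healthy 3, without which it was -0.02. Fau, a fusion with a ubiquitin-like protein, measured 1.86, 1.91 and 2.12 CPM against 1.92, 2.11 and 2.84 CPM. Rpsa, also known as the laminin receptor, measured 8.0, 7.16 and 5.82 CPM against 6.35, 6.45 and 5.80 CPM. Rps6, the substrate of the S6 kinases, measured 7.68, 8.04 and 6.27 CPM against 7.33, 7.10 and 7.00 CPM. The fold changes of Fau, Rpsa and Rps6 were 0.22 ± 0.30, -0.17 ± 0.20 and -0.04 ± 0.19.

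The lowest members gave little information. Rpl5 measured 0.527, 0.865 and 0.872 CPM in healthy and 0.834, 0.440 and 0.799 CPM in AML libraries, and Rpl11, its partner on MDM2, 2.37, 1.73 and 2.64 CPM against 2.27, 2.09 and 2.84 CPM. Rps29 had 34 to 51 reads, Rpl23a 27 to 54, Rpl24 35 to 47 and Rpl36a 10 to 17 per library. Their standard errors were 0.42, 0.47, 0.41 and 0.58, larger than any of their fold changes. Rpl21 and Rpl31, at 3.57 and 3.99 CPM on average in healthy libraries, had fold changes of -0.37 ± 0.25 and -0.32 ± 0.24, and their groups did not overlap.

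The 13 tested members with a TOP motif exactly at the annotated start had a median log2 fold change of -0.05, with 8 negative. The 44 tested members with a promoter entry and no motif at the start had a median of -0.13, with 34 negative. Among members with a mean count of at least 1000, the medians were -0.19 for the 6 with the motif and -0.15 for the 21 without. These differences were not tested. Across all 77 tested members the fold change and the share of unique coding windows had a Spearman's rho of -0.38. It is given as a description, since members share libraries and the share of unique windows goes with depth. The 29 members without a unique window had a median fold change of 0.00, with 14 negative and 15 positive. The 29 tested members above 0 and up to 20% had a median of -0.15, with 25 negative. All 19 members above 20% were negative, with a median of -0.17. The median standard errors of these classes were 0.28, 0.12 and 0.10.

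Relatives outside the rule include paralogs that replace a member in some tissues. The list also holds pseudogene rows and the gene of a protein that binds a ribosomal protein. Of 12 tested relatives 0 passed the threshold, with 5 negative and a median log2 fold change of 0.02. The tested pseudogene rows were all positive, at 0.03 to 0.47, so this median is not that of paralogs alone. Rps4l (chr6:148354656-148355596), a gene related to Rps4x, had the smallest p of this list. It measured 83.9, 76.6 and 56.7 CPM in healthy and 52.7, 46.7 and 47.6 CPM in AML libraries, a fold change of -0.56 ± 0.15 with an adjusted p of 0.404 by the edgeR test. Rpl39l, with 4 to 83 reads per library, was at -1.45 ± 0.75. The groups did not overlap in Rps4l, which DESeq2 called at an adjusted p of 0.0321. The share of unique coding windows of Rps4l was not determined, so it is not known whether its reads have a single source gene. Rpl22l1, the paralog of Rpl22, measured 22.4, 23.0 and 25.5 CPM against 22.5, 26.8 and 31.2 CPM, at 0.18 ± 0.14. Rps27l, a p53 target related to Rps27, measured 39.8, 39.2 and 40.2 CPM against 43.1, 37.1 and 38.6 CPM, at -0.01 ± 0.09. Rpl36al had a fold change of -0.01 ± 0.50.

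Other genes of protein synthesis had medians of a similar size. Of 25 further genes known for TOP messenger RNAs 0 passed, 23 had a negative log2 fold change, and the median was -0.13. Eef1a1, the elongation factor that delivers aminoacyl-tRNA, measured 754, 667 and 551 CPM in healthy and 572, 519 and 540.0 CPM in AML libraries, at -0.27 ± 0.12. Eef2, the translocation factor, was at -0.23 ± 0.11, and Eef1d, an exchange factor for Eef1a1, at -0.26 ± 0.08 with groups that did not overlap. Rack1, a scaffold on the small subunit with 98.7% unique coding windows, measured 194, 189 and 163 CPM against 174, 153 and 151 CPM, at -0.19 ± 0.09. Pabpc1, the poly(A)-binding protein, was at -0.14 ± 0.08, while Tpt1 was at 0.18 ± 0.22, with AML 1 the lowest and AML 3 the highest of its 6 libraries.

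Of 26 translation initiation factor genes 0 passed, 22 were negative, and the median was -0.14. Eif4a2, a helicase, measured 240.0, 229 and 238 CPM in healthy and 202, 193 and 211 CPM in AML libraries, at -0.22 ± 0.07, and Eif2b2, a subunit of the exchange factor of initiation, was at -0.19 ± 0.07. Of 76 tested mitochondrial ribosomal protein genes 0 passed, 52 were negative, and the median was -0.07, between that of the cytosolic members and that of all genes. Mrps23 and Mrps11 were at -0.25 ± 0.08 and -0.31 ± 0.09, with groups that did not overlap. Differences between these medians were not tested.

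Among 21 regulators of ribosomal protein synthesis 0 passed, with 11 negative and a median of -0.02. Myc, a transcription factor that drives ribosome production, measured 188, 242 and 230.0 CPM in healthy and 143, 133 and 140.0 CPM in AML libraries, which gave a log2 fold change of -0.67 ± 0.10 with an adjusted p of 0.323 by the edgeR test. Its groups did not overlap, and healthy 1 was the lowest of its healthy libraries. Healthy 3 was the lowest healthy library for all 37 members with a mean count of at least 1000. A relation between Myc and these members was not tested. Mtor and Rps6kb1, the kinases upstream of Rps6, were at 0.16 ± 0.17 and 0.00 ± 0.08. Larp1, which binds the TOP motif, and Eif4ebp1, a repressor of initiation, were at -0.13 ± 0.10 and -0.09 ± 0.10. Of 9 genes of ribosomal protein chaperones and p53 surveillance 0 passed, with a median of -0.10 and the smallest p for Bccip, at -0.15 ± 0.08, and Heatr3, at -0.19 ± 0.11.

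For the same contrast, the authors' deposited table lists 74 of the 78 members and leaves out Rpl5, Rpl24, Rpl26 and Rpl36a. Among the 74 listed, 56 have a negative and 18 a positive log2 fold change in the authors' deposited table, with a median of -0.14, against 0.00 over all 9769 genes. None is past an adjusted p of 0.05 in the authors' deposited table, where 0.757% of all genes are, and the members' smallest, for Rps3a1, is 0.584.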

How the data were processed

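Poly(A) RNA was measured in 3 AML and 3 healthy libraries, from 2 ng of total RNA and single reads of 51 cycles, per the labels' protocols. The authors deposited raw read counts per gene symbol, with gene positions and lengths. A second deposited table, of the authors' contrast, has RPKM per library (not used here), log2 average CPM and log2 fold change, the likelihood ratio as a score, and the p-value before and after adjustment. Tools in the submitters' processing notes are edgeR 3.28.1, HTSeq 0.6.0, STAR 2.6.0 and bcl2fastq 2.18.0.12, with the builds mm10 and hg19. No source used here gives the counting options.

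Counts were tested with the quasi-likelihood test of edgeR (version 4.0.16, under R 4.3.3) after TMM scaling, filterByExpr at a minimum count of 10, group only, two-sided, and Benjamini-Hochberg adjustment over 12469 genes. The threshold was an adjusted p of 0.05. With 3 libraries a group an exact permutation test cannot go below p = 0.1. CPM and RPKM use TMM-scaled totals, and RPKM the deposited length. The fit was tested on simulated data.

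Coding windows of 51 bases came from 1 GENCODE M21 transcript per gene (APPRIS principal, then CCDS, then longest). Alternatives were DESeq2 1.42.0, limma 3.58.1 voom, the likelihood ratio test, other size factors and filters, the replicate number as a block, and left-out libraries. Genes were named by a rule of smallest p, largest fold change, highest and lowest level, and fixed names. Rpl7a, Rpl13, Rpl18 and Rpl19 fall outside that rule and were named after their values were seen. The members and lists were chosen with earlier results of these data known. Some genes that the rule names are not reported here.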

Additional observations from a re-analysis of the deposited data

How the results depend on the processing

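The median log2 fold change of the members stayed negative under all 16 alternatives, and 0 members passed the adjusted threshold in each. With library totals only, the median of all genes moved to 0.07 and that of the members to -0.078, with 51 members (35.2% of all genes) negative, 0 (2.05%) lower at an unadjusted p below 0.05, and 7 (16.0%), 6 lower and 1 higher, with groups that do not overlap in place of 12. DESeq2 gave 10 lower members (4.39% of all genes) at an unadjusted p below 0.05 in place of 6 (3.75%). Leave-one-out fits gave 0 to 22 lower and 0 to 1 higher members, 13 to 45 whose groups do not overlap, medians from -0.200 to -0.089 (large subunit -0.200 to -0.093, small subunit -0.198 to -0.069), and large minus small subunit from -0.033 to 0.013. Fewer libraries make separation more frequent, and 22.9% to 34.8% of all genes were then separated, against 15.5% with all 6. Without healthy 1 and AML 1 there were 4 lower members (7.23% of all genes) and 1 higher, 38 separated against 47.3% of all genes, and a subunit difference of -0.049. The share of counts differed by -0.032 percentage points between groups and by -0.053 to -0.013 with 1 library left out, and depends on no size factor, filter or test. With the replicate number as a block 12 members (4.9% of all genes) were lower at an unadjusted p below 0.05, and 0 passed. Deviations of equally numbered libraries correlated at 0.134, -0.13 and 0.248, so the numbers were not taken as pairs. The cause of these changes was not tested. Myc passed with DESeq2, the likelihood ratio test, without healthy 1, without AML 1 and without both, and Rps4l with DESeq2. Counts limit members with under 100 reads, whose median standard error was 0.41.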
